A study of Mus musculus with 69 samples.

Results

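The 9 genes described here are receptors, feedback inhibitors and target transcription factors of the FGF-ERK pathway, picked by name from the 16263 genes of the mRNA-seq count table. They and the gene lists below were chosen with earlier results of these data known. Fgfr1 and Fgfr2 are receptors, Spry2, Spry4, Spred1 and Dusp6 are feedback inhibitors, and Etv4, Etv5 and Egr1 are transcription factors whose genes respond to the pathway. All 9 passed the filter on low counts. The cells were J1 mouse embryonic stem cells (ESCs) of the 129S4/SvJae strain background, a line from the inner cell mass of the blastocyst. WT cells were compared with 2 clones of them, Mut18 and Mut43, edited by CRISPR-Cas9 in H3f3a and H3f3b so that lysine 27 of histone H3.3 became arginine (H3.3K27R). Each of the 3 lines gave 2 biological replicates of mRNA-seq and 2 of ATAC-seq, a measure of open chromatin. Each mutant line was a single clone, so that the mutation and other differences that the clones carry cannot be told apart. No agent or time course separated the groups, and the cells had been grown on feeder cells and then passaged without them before harvest.

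In ESCs, FGF4 made by the cells binds FGF receptors, which are tyrosine kinases. Adaptor proteins then activate RAS, and RAF, MEK and ERK kinases follow in a relay. Active ERK enters the nucleus, where it switches on genes of ETS family factors and immediate early genes, and it also switches on its own inhibitors. Sprouty (Spry) and Spred proteins damp RAS and RAF activation, whereas Dusp6 is a phosphatase that inactivates ERK directly. The pathway is best known in ESCs for helping them to leave the naive state.

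The 6 mRNA-seq libraries held between 14992756 and 15143998 counts, and whether they had been brought to a common depth before deposit is not given in the sources used here. Of the ESC markers examined, 11 of 12 were higher and 1, Pou5f1, was lower in the mutants, and all were detected in every library. Nanog was at 0.20, Pou5f1 at -0.28 and Dppa3, a naive state marker, at 1.85 on the log2 fold change scale. H3f3a had a log2 fold change of -0.23 (adjusted p = 0.00016, edgeR) and H3f3b of 0.03 (adjusted p = 0.637), and neither value checks the edits, which change single codons. H3f3b differed between the clones, at -0.065 in Mut18 and 0.121 in Mut43. Mut43 minus Mut18 was 0.186 (adjusted p = 0.0402, edgeR). H3f3b lies on chromosome 11, whose genes had a median log2 fold change of 0.386. WT replicate 1 stood apart from WT replicate 2 in some immediate early and matrix genes. It had 209.9 against 32.3 normalized counts of Fos and 842.6 against 256.8 of Col3a1, a collagen gene of fibroblasts. Others differed less, such as the immediate early gene Junb, at 731.3 against 764.5, and Col1a1, at 1985.9 against 1796.6. Fibroblast markers were lower in the mutants for 12 of the 13 tested (14 listed). Marker calls used an adjusted p below 0.05 in edgeR, where 24.5% of all genes tested were lower and 23.5% higher. Without WT replicate 1 the log2 fold change went from -2.16 to -1.06 for Col3a1 and from -0.59 to -0.26 for Col1a2. For Tagln it went from -0.78 to -0.77. The summed level of the fibroblast markers was 11190 and 9519 (WT), 7701 and 6984 (Mut18) and 5577 and 5196 (Mut43). Its largest parts were Tagln, Acta2 and Col1a1, at 3415.3, 2728.0 and 1985.9 in WT replicate 1. No fibroblast marker was at 0 in every library. Markers of primed or early epiblast cells were lower for 7 of 8, and their sum was 12680 and 13310 in WT against 7623 to 7763 in the mutants. Of 9 primitive endoderm markers tested, 2 were higher and 3 lower, from Lama1 at 1.29 to Foxa2 at -3.21. Foxa2 had only 10.7 and 14.7 normalized counts in WT and 0 to 2 in the mutants. Without WT replicate 1, Col4a1 went from -0.56 to -0.14 and Lama1 from 1.29 to 1.30. The part of these cell states and cell types in the results below was not tested. Fewer cells of a type and less RNA per cell cannot be told apart in such bulk samples, and p-values measure the spread between these libraries only.

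Among the 9 genes, 4 were lower in H3.3K27R mutant ESCs, Fgfr1, Spry2, Spred1 and Dusp6, and 1, Etv4, was higher. Of all 14061 genes tested, 24.5% were lower and 23.5% higher at the same threshold, an adjusted p below 0.05 in edgeR's quasi-likelihood test of both clones against WT. The 4 others, Fgfr2, Spry4, Etv5 and Egr1, did not pass. Without WT replicate 1, 4 genes were lower and 2 higher, the second being Egr1, and of all genes tested in that fit 18.3% were lower and 18.0% higher. Without WT replicate 2, 4 were lower and 1 higher, beside 20.5% and 19.1% of all genes. None of the 9 changed by over 2-fold in edgeR, where 8.93% of all genes did, and the count was also 0 at an unadjusted p below 0.05 and with DESeq2. The 9 genes had a median log2 fold change of -0.12, against -0.004 over all genes. For 5 of the 9, the same 5, the 4 mutant libraries and the 2 WT libraries did not overlap, and 59.8% of all genes tested met that condition. By role, 3 of the 4 feedback inhibitors and 1 of the 2 receptors were lower, whereas 1 of the 3 target factors was higher and none was lower.

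**Figure D1:**
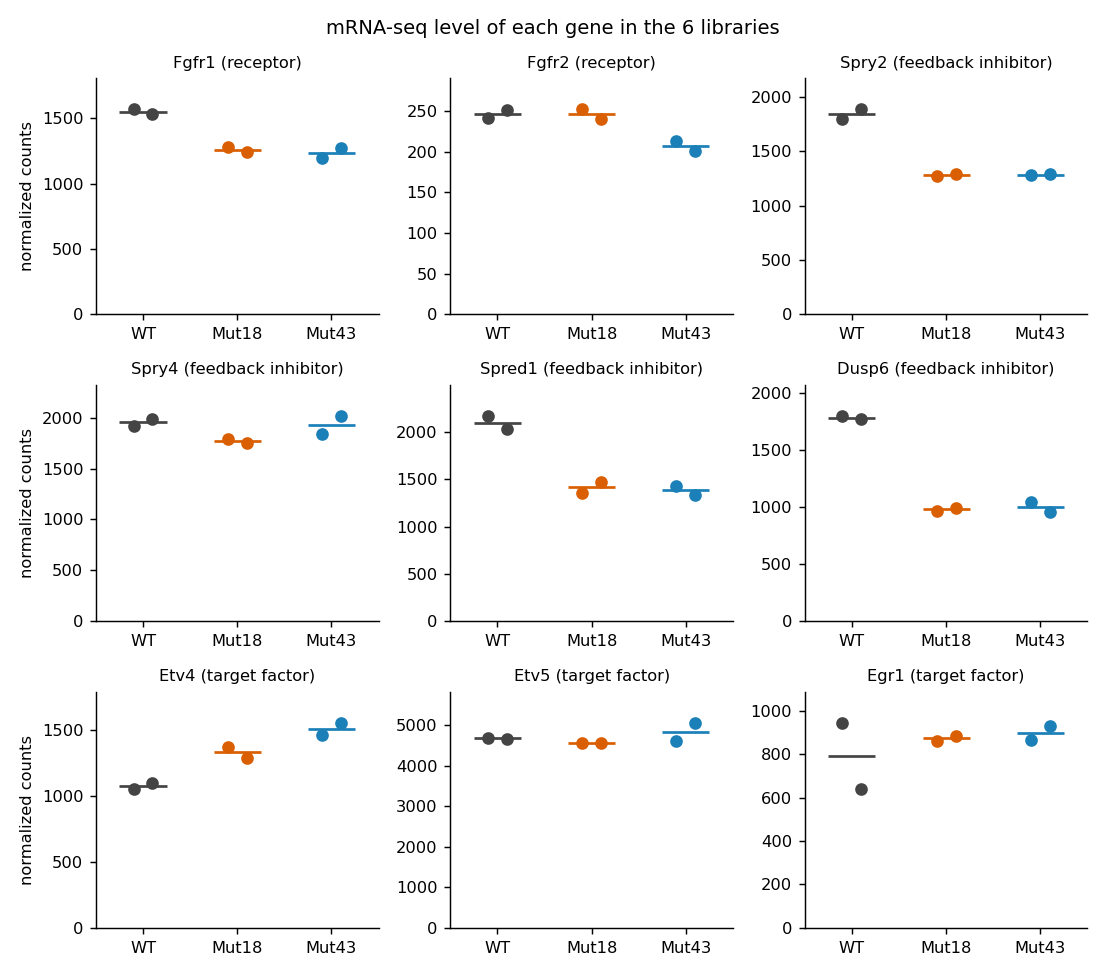
Normalized counts (vertical axes, from 0) of the 9 genes in each mRNA-seq library of WT, Mut18 and Mut43, with points for libraries and lines for the mean of 2. Dusp6, Spred1 and Spry2 lie lower in all 4 mutant libraries, and WT libraries of Egr1 lie on both sides of the mutants, at 944.2 and 640.0.

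Dusp6, the phosphatase of ERK, showed the largest change of the 9. It was measured at 1801.4 and 1771.1 normalized counts (WT), 967.2 and 996.3 (Mut18) and 1050.2 and 962.0 (Mut43). All 4 mutant libraries were thus below both WT libraries, with a gap far wider than the difference between replicates. The mean fell from 1786 ± 21.4 (SD, n = 2) to 993.9 ± 40.4 (SD, n = 4), which is -0.85 on the log2 scale (standard error 0.0456, 95% interval -0.94 to -0.75) or 0.556 of the WT level (adjusted p = 1.02e-11, edgeR). Only 7.70% of all genes tested had a lower log2 fold change. Without WT replicate 1 the log2 fold change was -0.83 for Dusp6, -0.54 for Spred1 and -0.55 for Spry2. Dusp6 lies on chromosome 10, chr10:99263231-99267489 of GRCm38, on the plus strand. Its promoter is printed further on with those of Spry2 and Spred1.

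Spred1, which blocks RAS activation at the membrane, was measured at 2170.5 and 2032.8 normalized counts (WT), 1355.7 and 1475.7 (Mut18) and 1433.9 and 1336.5 (Mut43). The groups did not overlap here either. Its log2 fold change was -0.59 (standard error 0.0472, 95% interval -0.68 to -0.49), from 2102 ± 97.4 (SD, n = 2) to 1400 ± 65.5 (SD, n = 4), with an adjusted p of 3.19e-09 (edgeR). It lies at chr2:117121071-117182279 on the plus strand. Spry2, an inhibitor that is itself induced by ERK activity, was measured at 1794.6 and 1885.7 normalized counts (WT), 1274.6 and 1288.6 (Mut18) and 1283.2 and 1286.7 (Mut43). The mutant libraries were close to one another and below WT. Spry2 fell by 0.52 on the log2 scale (standard error 0.0421, 95% interval -0.61 to -0.43, adjusted p = 3.38e-09, edgeR), from 1840 ± 64.5 (SD, n = 2) to 1283 ± 6.22 (SD, n = 4). Its span is chr14:105891947-105896819, on the minus strand.

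Spry4, the second Sprouty gene of the set, was measured at 1923.5 and 1993.6 normalized counts (WT), 1788.2 and 1747.8 (Mut18) and 1841.9 and 2018.4 (Mut43). Both Mut18 libraries were below WT, whereas those of Mut43 reached across the WT range. The log2 fold change was -0.08 (standard error 0.0509, 95% interval -0.19 to 0.02, adjusted p = 0.189, edgeR). Leaving out Mut43 replicate 2 gave -0.13 with an adjusted p of 0.0298, and scaling to library totals gave -0.12 with an adjusted p of 0.0462. Spry4 lies at chr18:38586247-38601347 on the minus strand.

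Fgfr1, the FGF receptor with the higher level per length of the 2, was measured at 1569.0 and 1532.9 normalized counts (WT), 1278.6 and 1238.0 (Mut18) and 1198.8 and 1269.5 (Mut43). The groups did not overlap. Its log2 fold change was -0.32 (standard error 0.0442, 95% interval -0.41 to -0.22, adjusted p = 5.99e-06, edgeR), from 1551 ± 25.5 (SD, n = 2) to 1246 ± 36.1 (SD, n = 4). Fgfr1 lies at chr8:25518759-25575718 on the plus strand. Fgfr2, which has isoforms that epithelial and mesenchymal tissues use differently, was measured at 241.2 and 251.9 normalized counts (WT), 252.3 and 240.7 (Mut18) and 212.7 and 200.9 (Mut43). The Mut18 libraries spanned almost the same range as WT, and those of Mut43 were lower. The log2 fold change was -0.12 (standard error 0.0969, 95% interval -0.32 to 0.08, adjusted p = 0.32, edgeR). Its RefSeq span is chr7:130162451-130266808 on the minus strand.

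Etv4 was the one gene of the 9 that was higher in the mutants. It encodes an ETS family factor that, with Etv5, carries FGF signals to target genes. It was measured at 1050.6 and 1095.8 normalized counts (WT), 1374.7 and 1289.6 (Mut18) and 1466.4 and 1555.7 (Mut43), without overlap. The log2 fold change was 0.41 (standard error 0.0603, 95% interval 0.28 to 0.53, adjusted p = 1.24e-05, edgeR), from 1073 ± 32.0 (SD, n = 2) to 1422 ± 115 (SD, n = 4). Etv4 lies at chr11:101769747-101785310 on the minus strand. Chromosome 11 had 932 other genes that averaged 50 normalized counts or more, with a median log2 fold change of 0.39, so that Etv4 differed from that median by 0.02 and stood at percentile 54.4 among them. The medians of the chromosomes that carry the other 8 genes were between -0.05 and 0.07. On the same reckoning the difference from the chromosome's median was -0.81 for Dusp6, at percentile 4.1 of its chromosome, -0.57 for Spred1 (percentile 7.2), -0.47 for Spry2 (percentile 14.0) and -0.38 for Fgfr1 (percentile 11.7).

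**Figure D2:**
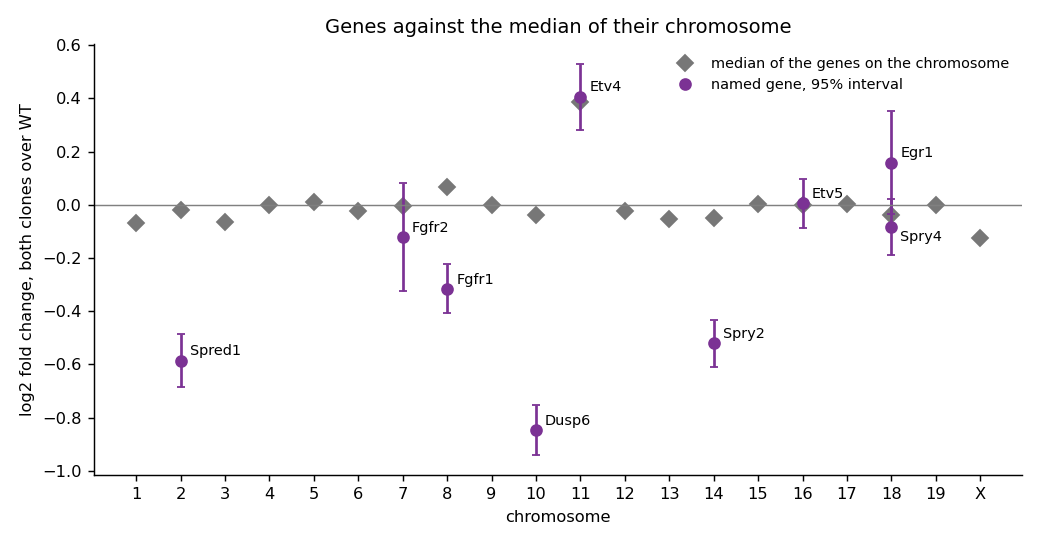
Log2 fold changes of both clones over WT (vertical axis) by chromosome, with diamonds for the median of the genes on chromosomes 1 to 19 and X and circles for the 9 genes with 95% intervals. Etv4 lies at 0.41 on chromosome 11, whose median is 0.39, whereas Dusp6 lies at -0.85 where the median is -0.04.

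Etv5, an ETS family factor close to Etv4 in sequence, was measured at 4682.7 and 4666.3 normalized counts (WT), 4551.7 and 4556.7 (Mut18) and 4607.9 and 5053.6 (Mut43). Its level was the highest of the 9 genes and the groups overlapped. The log2 fold change was 0.01 (standard error 0.0442, 95% interval -0.09 to 0.10, adjusted p = 0.93, edgeR), so that a change as large as that of Fgfr1 lay outside the interval. Etv5 lies at chr16:22381313-22439570 on the minus strand. Egr1, a zinc finger immediate early gene that is switched on within minutes of ERK activation, was measured at 944.2 and 640.0 normalized counts (WT), 859.1 and 885.0 (Mut18) and 863.0 and 929.5 (Mut43). WT replicate 1 was the highest of the 6 libraries and WT replicate 2 the lowest. The log2 fold change was 0.16 (standard error 0.0933, 95% interval -0.04 to 0.35, adjusted p = 0.171, edgeR). Without WT replicate 1 it was 0.47 with an adjusted p of 9.49e-06, and without WT replicate 2 it turned to -0.09 with an adjusted p of 0.334. Fos and Fosb moved with Egr1 between the WT libraries, at 209.9 and 118.1 normalized counts in WT replicate 1 against 32.3 and 15.7 in WT replicate 2, and that part of the Egr1 result was not tested. Egr1 lies at chr18:34861207-34864956 on the plus strand.

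Per length, the 9 genes kept a wide range. In WT, in reads per kilobase of exon scaled by library size (RPKM), Etv5 was highest at 77.0, followed by Spry2 at 58.6, Dusp6 at 42.4, Etv4 at 29.7, Spry4 at 27.4, Spred1 at 20.6, Fgfr1 at 19.7, Egr1 at 11.7 and Fgfr2 at 3.20. Only Spred1 and Fgfr1 overlapped between neighbours of this order. In the mutants the order was Etv5 at 77.3, Spry2 at 40.8, Etv4 at 39.3, Spry4 at 25.8, Dusp6 at 23.6, Fgfr1 at 15.9, Spred1 at 13.7, Egr1 at 13.1 and Fgfr2 at 2.94. Dusp6 thus moved from above Etv4 and Spry4 to below both, and the neighbours that overlapped were Spry2 and Etv4, Spry4 and Dusp6, and Spred1 and Egr1.

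Next, Mut18 and Mut43 were each set against WT, in comparisons that share the WT libraries. In Mut18 6 of the 9 genes changed (41.3% of all genes tested), and in Mut43 also 6 (46.8% of all genes tested). The 5 genes named above passed in both clones. For Dusp6 the log2 fold changes were -0.86 and -0.83, for Spred1 -0.57 and -0.60, for Spry2 -0.52 and -0.52, for Fgfr1 -0.30 and -0.33, and for Etv4 0.31 and 0.49, in Mut18 and Mut43 in that order. The sixth gene differed. In Mut18 it was Spry4, with -0.15 (adjusted p = 0.0225, edgeR) against -0.02 (adjusted p = 0.759) in Mut43, and in Mut43 it was Fgfr2, with -0.25 (adjusted p = 0.0378) against 0.00 (adjusted p = 0.999) in Mut18. The difference between the clones was tested directly, and 0 of the 9 genes passed in edgeR, where 0.327% of all genes did. At an unadjusted p below 0.05 there were 3, beside 8.52% of all genes, and DESeq2 called 0, with 1 at an unadjusted p below 0.05. Those 3 were Etv4, Fgfr2 and Spry4. For Etv4, Mut43 minus Mut18 was 0.18 (95% interval 0.07 to 0.29, adjusted p = 0.204, edgeR). Fgfr2 differed by -0.25 (95% interval -0.46 to -0.05, adjusted p = 0.425, edgeR) and Spry4 by 0.13 (95% interval 0.02 to 0.23, adjusted p = 0.451, edgeR). For Dusp6 the interval of that difference was -0.08 to 0.15, for Spred1 -0.15 to 0.09 and for Spry2 -0.10 to 0.11.

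**Figure D3:**
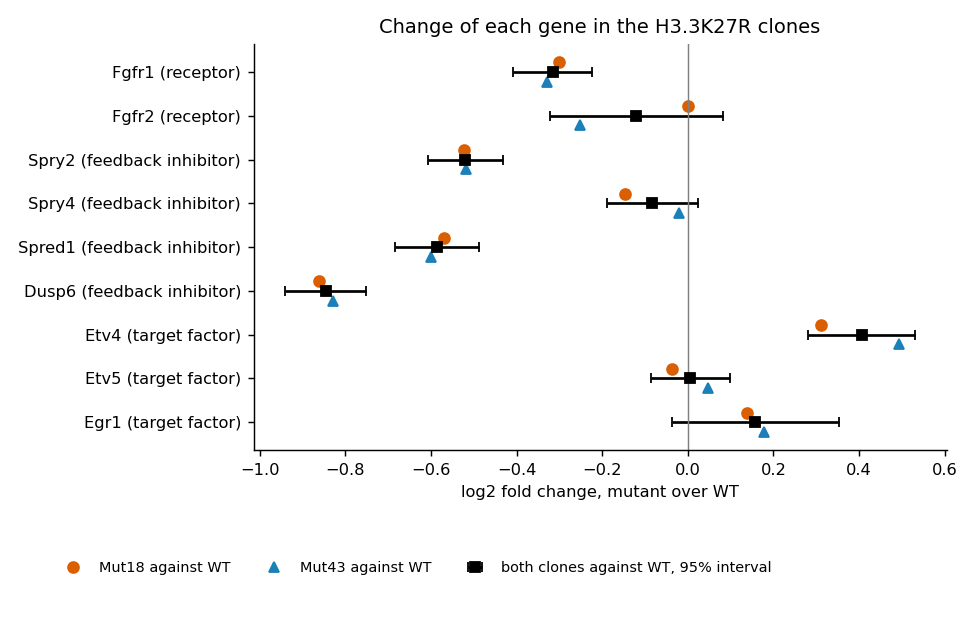
Log2 fold change over WT (horizontal axis) of the 9 genes, with squares and 95% intervals for both clones together, circles for Mut18 and triangles for Mut43. Intervals of Fgfr1, Spry2, Spred1, Dusp6 and Etv4 stay clear of 0, and the clones lie furthest apart for Fgfr2, at 0.00 and -0.25.

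The promoters of the 3 inhibitors that fell together are shown here, as RefSeq windows of GRCm38.p6 from 250 bases before the start site to 50 after it. Windows were searched for 5 of the 9 genes, namely Spred1, Fgfr2, Dusp6, Spry2 and Etv5 (which had 2). Capitals mark letters of 2 motifs tied to the pathway. Capicua (Cic), a repressor that ERK activity removes from target genes, is known to bind TGAATGAA, TGAATGGA, TCAATGAA and TCAATGGA, and ETS factors bind around CCGGAA. The AP-1 letters TGACTCA and TGAGTCA and the CRE letters TGACGTCA would have been capitals as well but were not found, and CCAAT and TATAAA were searched without capitals, all on both strands.

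Dusp6, chr10:99262981-99263280, plus strand: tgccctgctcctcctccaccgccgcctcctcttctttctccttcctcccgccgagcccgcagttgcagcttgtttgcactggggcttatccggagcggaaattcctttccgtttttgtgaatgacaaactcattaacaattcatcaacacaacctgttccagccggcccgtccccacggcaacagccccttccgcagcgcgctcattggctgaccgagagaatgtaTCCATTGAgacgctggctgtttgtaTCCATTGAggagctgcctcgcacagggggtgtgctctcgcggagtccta
Spry2, chr14:105896770-105897069, minus strand: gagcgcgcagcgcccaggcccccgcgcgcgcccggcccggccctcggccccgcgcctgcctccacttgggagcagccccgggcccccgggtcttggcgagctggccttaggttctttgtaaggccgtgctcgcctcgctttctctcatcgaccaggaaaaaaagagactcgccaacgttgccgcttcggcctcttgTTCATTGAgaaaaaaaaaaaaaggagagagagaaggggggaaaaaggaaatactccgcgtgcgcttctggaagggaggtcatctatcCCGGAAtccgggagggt
Spred1, chr2:117120821-117121120, plus strand: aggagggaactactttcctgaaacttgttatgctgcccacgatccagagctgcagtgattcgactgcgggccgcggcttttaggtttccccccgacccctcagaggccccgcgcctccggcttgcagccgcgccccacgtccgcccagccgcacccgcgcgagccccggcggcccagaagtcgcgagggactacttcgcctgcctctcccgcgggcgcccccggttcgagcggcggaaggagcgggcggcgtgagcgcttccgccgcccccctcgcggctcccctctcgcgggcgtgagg

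Dusp6 held 2 copies of the Capicua letters TCAATGGA on the strand opposite to the gene, which read TCCATTGA as printed and began at positions -24 and 1 counted from the start site as 0. Spry2 held TCAATGAA on the opposite strand at -54 and CCGGAA at 33. Of 32851 promoter windows of the same length, 3.84% held any of the 4 Capicua octamers and 14.9% held CCGGAA. The window of Spred1 held none of the 6 motifs, and neither Capicua nor ETS letters were in the windows of Fgfr2 and Etv5. CCAAT stood in the windows of Dusp6 and Etv5, and in 37.4% of all windows. AP-1 letters, CRE letters and TATAAA were in 5.20%, 1.79% and 13.6% of all windows and in none of these. Base composition differed, with 57.3% G and C in Dusp6, 62.7% in Spry2, 72.3% in Spred1 and 43.7% in Fgfr2.

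Open chromatin at these genes was read from the ATAC-seq peak lists, which were called in each library separately and held between 63588 and 78536 peaks. A peak lay within 1000 bp of a start site in all 6 libraries for 8 of the 9 genes, and for 85.7% of 13937 genes tested and placed on the genome. Fgfr2 was the exception. The region at its start site, chr7:130266178-130266452, was called in the 2 WT libraries and, of the mutants, in Mut18 replicate 2. The peak of Mut18 replicate 1 within that window was another one, with its summit 1085 bp from the start site, and neither Mut43 library had a peak there. Another region, chr7:130264667-130265006, centred 1.4 kb away, had a peak in 1 WT library and in all 4 mutant libraries, and with a window of 2500 bp all 9 genes had a peak in every library. Enrichment at Fgfr2 was low where found, from percentile 2.0 to 18.0 of the library's own peaks.

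Enrichment over the local background was read as a percentile within each library, because libraries differ in depth. Such ranks also depend on how many peaks a library holds, so that counts of genes are given both for all peaks and for the 63588 peaks of lowest q in each library, the latter chosen after seeing the data. At Dusp6 it was 41.4 and 32.0 (WT), 35.0 and 51.4 (Mut18) and 45.6 and 52.3 (Mut43) with all peaks, where the groups overlapped. With equal numbers of peaks it was 27.6 and 27.9 in WT and between 35.0 and 50.6 in the mutants, without overlap. The merged region there, chr10:99262976-99263594, covered the whole promoter window printed above. At Spred1 the percentiles were 32.2 and 32.5 (WT), 47.5 and 55.3 (Mut18) and 41.3 and 55.5 (Mut43), and with equal numbers 20.2 and 28.5 in WT and between 36.7 and 53.9 in the mutants. That peak reached into the window of 1000 bp, but its summit lay between -1255 and -1338 bp from the nearest GENCODE start site, chr2:117121374. The promoter window printed above was set from the RefSeq start, chr2:117121071. At Fgfr1 they were 22.2 and 24.6 (WT), 32.2 and 33.8 (Mut18) and 40.5 and 32.3 (Mut43) with all peaks.

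With all peaks, 5 of the 8 genes with a peak in every library, Fgfr1, Spry4, Spred1, Etv5 and Egr1, had every mutant percentile above both WT percentiles, and 0 had every one below. Among 11948 genes with such peaks, 14.4% were above and 10.3% below. With equal numbers of peaks, 7 of the 8 were above, Spry2 and Dusp6 in addition, and 0 below, beside 21.0% and 5.16% of 11711 genes, so that the count and its background both moved with the number of peaks ranked. At Spry4 the percentiles were 10.0 and 9.1 in WT and between 10.7 and 16.0 in the mutants, and at Egr1 7.1 and 4.4 in WT and between 9.1 and 12.4 in the mutants. The summit of the strongest Egr1 peak lay at -654 and -689 bp from the start site in WT. In the mutants it lay between -100 and -166 bp. These summits fell in the same merged region of 1310 bp, which had a peak in every library. The peak of WT replicate 2 was 1283 bp wide. Peaks of Etv5 were at 40.4 and 34.7 in WT and between 45.8 and 55.8 in the mutants. No test was made of this measure, and it stands as a description of these libraries.

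**Figure D4:**
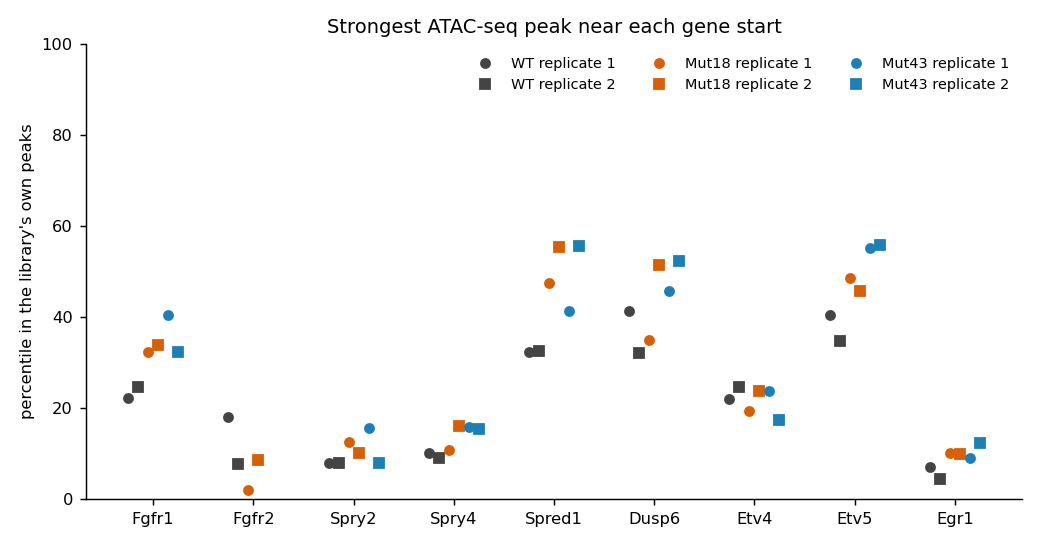
Percentile of the strongest ATAC-seq peak within 1000 bp of a start site among the peaks of its own library (vertical axis) for the 9 genes, by library. All peaks of each library were ranked, between 63588 and 78536, and such ranks depend on that number. Spred1 lies at 32.2 and 32.5 in WT and between 41.3 and 55.5 in the mutants, and no point is drawn for Fgfr2 in Mut43, where no peak was found.

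Within 20 kb of the 9 gene spans, 64 regions had a peak in at least 1 library, of which 33 had one in every library (54.7% of all 89596 regions). Regions with peaks in the 2 WT libraries but in none of the mutants numbered 3 (3.25% of all regions), and regions with peaks in every mutant but not in WT numbered 0 (0.733% of all regions). The remaining 28 had peaks in some of the libraries, and 9 of them lay around Fgfr2. Etv5 had the most regions, 13, of which 8 were in every library, and Fgfr1 had 9, of which 8 were in every library.

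The 3 regions seen in WT only lay inside Spred1, Spry4 and Etv5. That of Spred1, chr2:117158111-117158338 in an intron 36.6 kb from the start site, had fold enrichments of 6.20 and 8.18 in the WT libraries, at percentiles 39.3 and 55.9. Spred1 was also the only gene of these 3 whose mRNA changed with both clones together, and a link between region and mRNA was not tested. The sequence of that region follows from the GRCm38.p6 genome, plus strand, with the 21 bases around the summit of WT replicate 2 in capitals.

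Spred1 intron, WT-only peak: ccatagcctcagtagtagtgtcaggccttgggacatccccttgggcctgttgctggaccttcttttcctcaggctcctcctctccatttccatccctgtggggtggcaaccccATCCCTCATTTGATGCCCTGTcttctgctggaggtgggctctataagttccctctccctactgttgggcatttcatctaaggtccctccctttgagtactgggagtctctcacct

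By contrast, the WT-only regions of Spry4 (overlapping an exon) and Etv5 (in an intron) had fold enrichments of 3.15 and 3.75, and of 3.37 and 3.85, all at or below percentile 2.6 of their library.

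A wider list of the FGF-ERK pathway was then examined. It was chosen with earlier results of these data known, so that its counts are no independent test. The list held 116 genes in 6 roles, the 9 genes left out. Of these, 106 were tested. Lower levels in the mutants were found for 51 and higher levels for 15, while 40 did not pass (24.5% and 23.5% of all genes tested were lower and higher). The median log2 fold change was -0.25, and 13 genes were lower by over 2-fold. With all libraries no gene was higher by over 2-fold in edgeR, also at an unadjusted p below 0.05 and with DESeq2. Leaving out 1 library put single genes past that mark, chosen here after their values were seen. Fgf10, a ligand, was at 1.44 (adjusted p = 5.99e-05, edgeR) without WT replicate 1 and at 1.06 (adjusted p = 0.000433) without Mut18 replicate 2, and Rasal1 was at 1.05 (adjusted p = 0.00157) without WT replicate 2. Leaving out WT replicate 1 gave 43 lower and 13 higher, with 10 lower by over 2-fold, where 18.3% and 18.0% of all genes were lower and higher. Leaving out WT replicate 2 gave 45 lower and 10 higher, with 14 lower by over 2-fold, where 20.5% and 19.1% of all genes were.

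Ligands and their carriers were lower for 9 of 13 and higher for 2, with a median of -0.55. Fgf5, a ligand of the epiblast after implantation, had 279.2 and 292.1 normalized counts in WT against 41.7 to 52.6 in the mutants, a log2 fold change of -2.58 (adjusted p = 7.96e-13, edgeR). Fgf13, an intracellular member of the family, was at -1.95, Fgfbp1, which releases FGFs from the matrix, at -1.16 and Fgf7, a ligand made by mesenchyme, at -1.47 from 15.6 and 15.7 counts in WT. Fgf4, the ligand that ESCs make themselves, was higher by 0.14 (adjusted p = 0.0113, edgeR), but its adjusted p was 0.0643 without WT replicate 1 and 0.0636 without WT replicate 2, and without either of them 1 ligand was higher.

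Receptors and coreceptors other than Fgfr1 and Fgfr2 were lower for 8 of 13 and higher for 2, with a median of -0.50. The count of higher ones was 1 without WT replicate 1, WT replicate 2, Mut43 replicate 1 or Mut43 replicate 2. Gpc1 and Gpc4, glypicans that present FGFs to receptors on heparan sulfate chains, were at -1.16 and -1.03, and Flrt2, a transmembrane protein that binds FGF receptors, at -1.43 (adjusted p = 8.85e-09, edgeR). Feedback inhibitors outside the 9 genes were lower for 6 of 15 and higher for 2. The count of lower ones was 7 without Mut18 replicate 1 or Mut18 replicate 2. Among the 6, Spry1 was at -0.32 and Phlda1 at -0.25. Without WT replicate 2 they were at -0.23 and -0.16, and without WT replicate 1 at -0.40 and -0.33. Spred3, a relative of Spred1, was at -1.29, with 252.9 and 282.3 normalized counts in WT against 99.7 to 116.3 in the mutants. Spred2, another relative, went the other way, at 0.41 (adjusted p = 2.58e-06, edgeR). It lies on chromosome 11, whose median was 0.39. Rasal1, a RAS GTPase activator, was at 0.81.

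Adaptors and RAS regulators had a median of 0.01, with 5 of 19 higher and 4 lower, and kinases and scaffolds a median of -0.01, with 2 of 17 higher and 5 lower. Grb2, the adaptor that recruits SOS to receptors, was higher by 0.61 and Gab1, a docking protein, by 0.56. Grb2, the scaffold Ksr1, at 0.71, and the RAS regulator Nf1, at 0.32, lie on chromosome 11, whose median was 0.39. Rps6ka3, a kinase downstream of ERK, was at -0.82. Without WT replicate 1, WT replicate 2 or Mut43 replicate 2 the kinases and scaffolds called were 1 higher and 3 lower, and without Mut18 replicate 1 or Mut43 replicate 1 also 1 was higher.

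Immediate early targets and nuclear effectors were lower for 19 of 29 and higher for 2, with a median of -0.43, and 5 of them were lower by over 2-fold. Without WT replicate 1, 14 were lower, of which 1 by over 2-fold, and without WT replicate 2, 1 was higher. Fos was at -1.74 and Fosb at -1.98 with all libraries, and at 0.16 (adjusted p = 0.701) and 0.11 (adjusted p = 0.873) without WT replicate 1. Jun, the partner of Fos in AP-1, had 366.1 and 259.7 normalized counts in WT against 130.3 to 165.9 in the mutants, and its log2 fold change of -1.11 (adjusted p = 2.13e-07, edgeR) became -0.83 (adjusted p = 6.94e-06) without that library. Egr2 and Egr4, relatives of Egr1, were at -1.48 and -1.69 on no more than 23.4 counts in any library. Without WT replicate 1, Egr2 was at -1.05 (adjusted p = 0.15, edgeR), and without WT replicate 2, Egr4 was at -1.29 (adjusted p = 0.103), so that each lost its call in 1 of these fits.

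**Figure D5:**
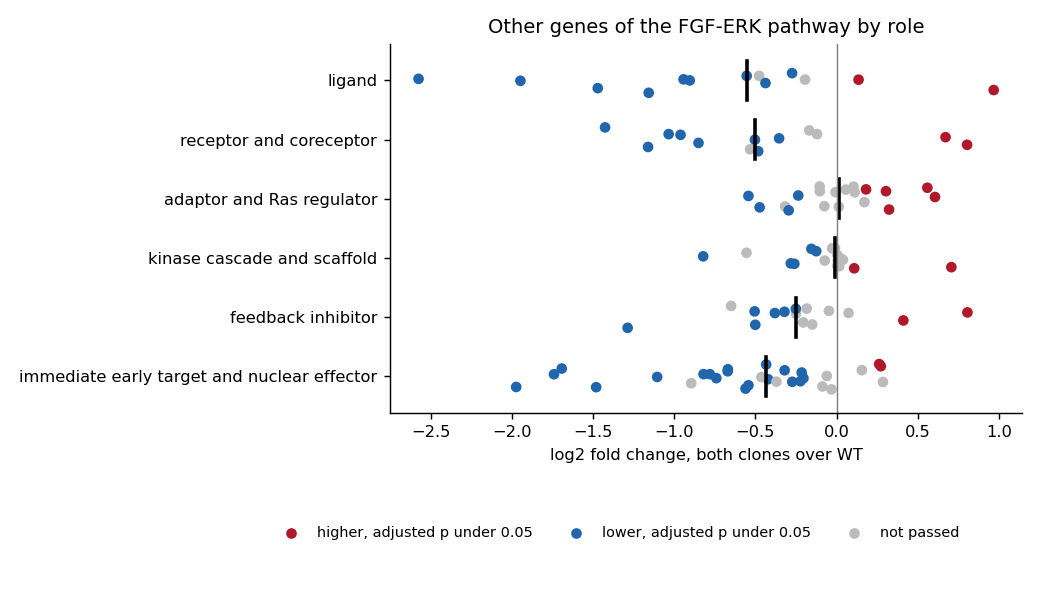
Log2 fold change of both clones over WT (horizontal axis) of the 106 other pathway genes tested, by role, with red for higher, blue for lower and grey for not passed at an adjusted p of 0.05 and a black bar for the median of the role. Ligands, coreceptors and immediate early targets reach furthest to the left, and the medians of adaptors and kinases lie near 0.

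The genes whose levels followed Dusp6 and Spred1 most closely over the 6 libraries were looked up among 11067 other genes that averaged 50 normalized counts or more. For Dusp6 they were Dok2, a docking protein of RAS signalling (r = 0.9985), and Tcf12, a bHLH factor (r = 0.9984). For Spred1 they were Slc1a3, a glutamate transporter (r = 0.9995), and Chmp1b, of the ESCRT machinery (r = 0.9993). With 6 libraries in 2 main groups that share WT and depth, such values describe a pattern only.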

How the data were processed

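mRNA-seq and ATAC-seq were measured in WT, Mut18 and Mut43 ESCs, with 2 libraries per line and assay and about equal totals of counts per mRNA-seq library (14992756 to 15143998). The deposited mRNA-seq table holds whole-number read counts per gene symbol that behave as unnormalized counts, although totals this close leave it unknown whether libraries had been thinned to one depth; the authors made them from paired reads on mm10 joined to the fly genome; STAR and DESeq2 are named in the submitters' processing notes, and the counting program is not given in the sources used here. The deposited ATAC-seq peak lists give fold enrichment as a ratio, −log10 p and −log10 q for each peak, called by the authors in each library (MACS2 and Bowtie2 2.3.4.2 are named in the notes). The ChIP-seq samples of the series were not analysed here.

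Genes were filtered (filterByExpr, minimum count 10, minimum total 15), scaled by TMM and tested with the quasi-likelihood test of edgeR 4.0.16 (R 4.3.3), WT (n = 2) against both clones (n = 4) and, in a fit of 3 lines, Mut18 or Mut43 against WT and Mut43 against Mut18. p-values were adjusted by Benjamini-Hochberg over all 14061 genes tested, with 0.05 as the threshold and 2-fold as the mark of large change. Normalized counts are counts divided by effective library size, rescaled to the mean library. The procedure was tested on simulated data. DESeq2 1.42.0, other scalings, other filters, a replicate block and leaving out each library were the alternatives. Table symbols were placed by GENCODE vM21 and by RefSeq on GRCm38.p6, the same build as mm10. The table holds 24 date-like names, left as they are, and has 0 columns without a sample.

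ATAC-seq peaks overlapping by at least 1 bp were merged into regions. Promoter peaks were those within 1000 bp of a GENCODE start site lying no further than 5000 bp from the RefSeq span. Distances of peaks were taken from these start sites, and the printed promoter windows from RefSeq start sites. The 9 genes and the other lists were chosen with earlier results of these data known. Named pathway genes were those past both thresholds, and in each role the 2 with the largest called change and a mean of at least 50 normalized counts. Fgf4, Fgf10, Spred2, Spry1, Phlda1, Junb and Nf1 were named in addition, after their values were seen. An item withheld for evaluation is not reported here.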

Additional observations from a re-analysis of the deposited data

Results flagged for a closer look

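Etv5 in the 4 mutant libraries had 1 library far from the others. Mut43 replicate 2 had 5053.6 normalized counts against 4551.7 to 4607.9 in the other 3, and the gap was 0.888 of the range of the 4. Chance flags about 1 group in 20 by this measure, and 9 genes were examined. No other gene of the 9 met it, and no gene of the 9 passed the test of the difference between Mut18 and Mut43.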

How the results depend on the processing

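Counts over the 9 genes, and the counts of pathway genes higher and lower, stayed within 1.5 times their main value under every alternative run, with 1 exception. The count of the 9 genes higher in the mutants ranged from 1 to 2 when each library was left out, and it was 2 without WT replicate 1, where Egr1 passed (0.47). Without WT replicate 2, Egr1 turned to -0.088. Etv5 changed sign within a narrow range, at -0.034 with library totals, -0.012 with upper-quartile scaling, -0.002 with a mean of at least 50 and between -0.031 and 0.021 when each library was left out. Counts by role moved more, with immediate early genes lower by over 2-fold going from 5 to 1 without WT replicate 1, kinases from 5 lower to 3, and ligands and receptors from 2 higher to 1. Spry4 passed at -0.12 with library totals and at -0.13 without Mut43 replicate 2. Subtracting the chromosome's median moved Fgfr1 to -0.38, Spry2 to -0.47 and Etv4 to 0.02. The cause was not tested. Among the alternatives run on the whole table, Dusp6 ranged from -0.89 to -0.82, Spred1 from -0.63 to -0.54, Spry2 from -0.56 to -0.48, Fgfr1 from -0.36 to -0.29 and Etv4 from 0.36 to 0.45, and each of these 5 stayed past the threshold. Genes with a promoter peak in every ATAC-seq library numbered between 7 and 9. Genes with every mutant percentile above WT numbered 5 with all peaks and 7 with equal numbers of peaks, an alternative chosen after seeing the data.

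The replicate numbers did not pair the libraries. Same-numbered libraries deviated from their group means with correlations of -0.012, 0.023 and 0.004 over genes. With the replicate block, 4 of the 9 genes were lower and 1 higher, Dusp6 was at -0.85, and no call among the 9 changed. With 2 WT libraries, a single WT library decides the result for Egr1, and changes as small as that of Spry4 lie at the limit of what these libraries resolve.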
